A study of Mus musculus with 16 samples.

Results

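The early response genes of cyclic AMP (cAMP) and its transcription factor CREB were followed through indirect cocultures of sympathetic ganglia with fibroblasts. The 10 genes were Crem, Nr4a1, Nr4a2, Nr4a3, Fos, Fosb, Junb, Per1, Gem and Pde4d, taken from the tables by name. They are 10 protein-coding rows of the 56941 genes in each of 2 tables, and all 10 were found and tested in both. Bulk RNA was sequenced from 16 libraries. The PSC libraries came from mPSC1, mouse pancreatic stellate cells made immortal (PSCs, fibroblasts of the pancreas that can become cancer-associated fibroblasts), cultured alone (PSC, n = 3) or with ganglia (PSC+SCG, n = 3). The ganglion libraries came from explants of superior cervical ganglia (SCG) of wild-type C57BL/6J pups aged 1 to 4 days, cultured alone (SCG, n = 3), with NIH 3T3 embryonic fibroblasts (SCG+MEF, n = 3) or with mPSC1 cells (SCG+PSC, n = 4). In the cocultures 8 to 13 explants and the fibroblasts, which sat on an insert, shared medium without contact for about 70 hours. Each fibroblast type was 1 cell line, and the explants were grown in medium with serum and nerve growth factor.

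Sympathetic neurons release noradrenaline, and beta-adrenergic receptors on the cells it reaches act through the G protein Gs on adenylyl cyclase, which makes cAMP. cAMP frees the catalytic subunits of protein kinase A, and these phosphorylate CREB on the cAMP response element (CRE) of its target genes. The transcripts of such genes typically rise within an hour and fall again within a few, because several of the products shut the response down. In neurons the same genes also answer to calcium entry, and in fibroblasts to serum and growth factors, so that a rise in any of them is not particular to cAMP. RNA taken at the end of a culture of days reads the level at that time and does not show a peak that has passed.

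The promoters of the genes were read for the CRE, since it is the element through which CREB acts on them. In the 250 bases before the start of the Ensembl canonical transcript (GENCODE M39, GRCm39), the CRE core TGACG was found on either strand (as TGACG or CGTCA) in 6 of the 10 genes (Crem, Nr4a1, Nr4a3, Fos, Fosb and Junb), against 18% of 21757 promoters of protein-coding genes. The full CRE TGACGTCA, which also counts as a CRE core, was found in 0 of the 10 and in 1.7% of all promoters. A match is a description of these letters and not a bound site. The 4 stretches of 60 bases shown next were the ones with a CRE core (in capitals) that touched no annotated exon, for Nr4a3, Fos, Fosb and Junb. They are written 5′ to 3′ on the strand of the gene.
Nr4a3 (chr4:48045060-48045119, + strand, 93 to 34 bases before the start): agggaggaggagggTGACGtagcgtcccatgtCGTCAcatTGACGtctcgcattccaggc
Fos (chr12:85520571-85520630, + strand, 87 to 28 bases before the start): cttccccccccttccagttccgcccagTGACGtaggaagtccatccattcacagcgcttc
Fosb (chr7:19043998-19044057, - strand, 81 to 22 bases before the start): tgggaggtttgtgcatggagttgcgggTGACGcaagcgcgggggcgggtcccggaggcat
Junb (chr8:85705451-85705510, - strand, 163 to 104 bases before the start): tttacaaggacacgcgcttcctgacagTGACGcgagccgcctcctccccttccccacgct
Nr4a3, an orphan nuclear receptor, had 3 CRE cores within its stretch, and the other 3 genes had 1 each.

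The reads on genes ranged from 31900689 to 41632381 in the 14 libraries for which whole reads could be recovered. The values below are normalized counts, that is, reads per gene divided by the DESeq2 size factor of the library, and the PSC and ganglion libraries were normalized apart, so levels were compared within each of the 2 sets. All 10 fibroblast markers were detected in PSCs, with sums of 625307 to 915258, while 4 of 15 sympathetic neuron markers were at 0 in every PSC library and the summed level of the 15 was 2605 to 3526. In the explants all 15 neuron markers had a mean of at least 10 and summed to 172262 to 358992, beside fibroblast markers at 432459 to 632771 and markers of satellite glia at 62131 to 83316, so these libraries hold several cell types. In such bulk samples, fewer cells of a type and less RNA per cell cannot be told apart.

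The members stood at very different levels. Per kilobase of exon, Junb, a partner of the FOS proteins in the transcription factor AP-1, was the highest in all 5 groups, with 1297 ± 174 normalized counts per kilobase (SD, n = 3) in SCG and 802 ± 125 (SD, n = 3) in PSC. Fos, its partner in AP-1, was next in the ganglia, with 625 ± 238 (SD, n = 3) per kilobase in SCG, which placed it above 90.9% of protein-coding genes of the same libraries. Within PSCs, Fos was at 42.5 ± 11.7 (SD, n = 3) per kilobase, above 53.6% of protein-coding genes. All percentiles here are over 21621 protein-coding genes, those not detected included, so they stand higher than among detected genes alone. The second place in PSCs was held by Gem, a small GTPase that curbs calcium channels. Gem had 507 ± 156 (SD, n = 3) per kilobase in PSC, with a percentile of 86.9, and 80.5 ± 5.85 (SD, n = 3) in SCG, with a percentile of 57.5. Per1, a clock gene that CREB induces, was the third in each of the 5 groups, at 155 ± 18.0 (SD, n = 3) per kilobase in SCG and 239 ± 37.1 (SD, n = 3) in PSC. Gem, Crem, Pde4d, Nr4a2 and Nr4a1 followed in SCG between 80.5 and 51.2 per kilobase, and from Crem on each overlapped with its neighbours in this order. Nr4a3 and Fosb were lowest in every group, from 2.69 per kilobase (Nr4a3 in PSC+SCG) to 18.8 (Nr4a3 in SCG+MEF).

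None of the 10 genes was past the threshold in any of the 4 comparisons. To be past it, a gene needed an absolute log2 fold change of 0.5 or more and a limma p, adjusted by Benjamini-Hochberg over all genes tested, no greater than 0.05. In PSC+SCG against PSC 0 of 14541 protein-coding genes tested were past it (0%). For SCG+PSC against SCG the share past it was 0.0189%, for SCG+MEF against SCG 0.0189%, and for SCG+PSC against SCG+MEF 0%. Deviations from the group means were shared by libraries with the same replicate number, so a fit with the replicate number as a block was set beside it. With the block 0.523%, 1.94%, 0.239% and 1.14% of protein-coding genes were past the threshold in the 4 comparisons, in the order just given, and still 0 of the 10 members in each. An unadjusted limma p under 0.05 was reached by 0, 1, 1 and 0 members, where 1.41%, 4.14%, 2.44% and 3.07% of protein-coding genes reached it, and with the block by 3, 2, 3 and 0 members, against 6.09%, 13.3%, 8.1% and 14.8%. In the ganglia those with the block were Crem and Gem with PSCs, and Fosb, Gem and Pde4d with MEFs, each against SCG. Their limma adjusted p in the blocked fit was 0.369 or more. No p-value here shows that the genes were unaltered, and the intervals below give the differences that these libraries leave possible. The methods of the study name several experiment dates but do not tie a library to one. The p-values rest on the spread between these libraries, and limma draws the spread of each gene toward that of genes at a similar level. An interval or p-value thus does not reflect the values of its own gene alone, with or without the block.

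**Figure D1:**
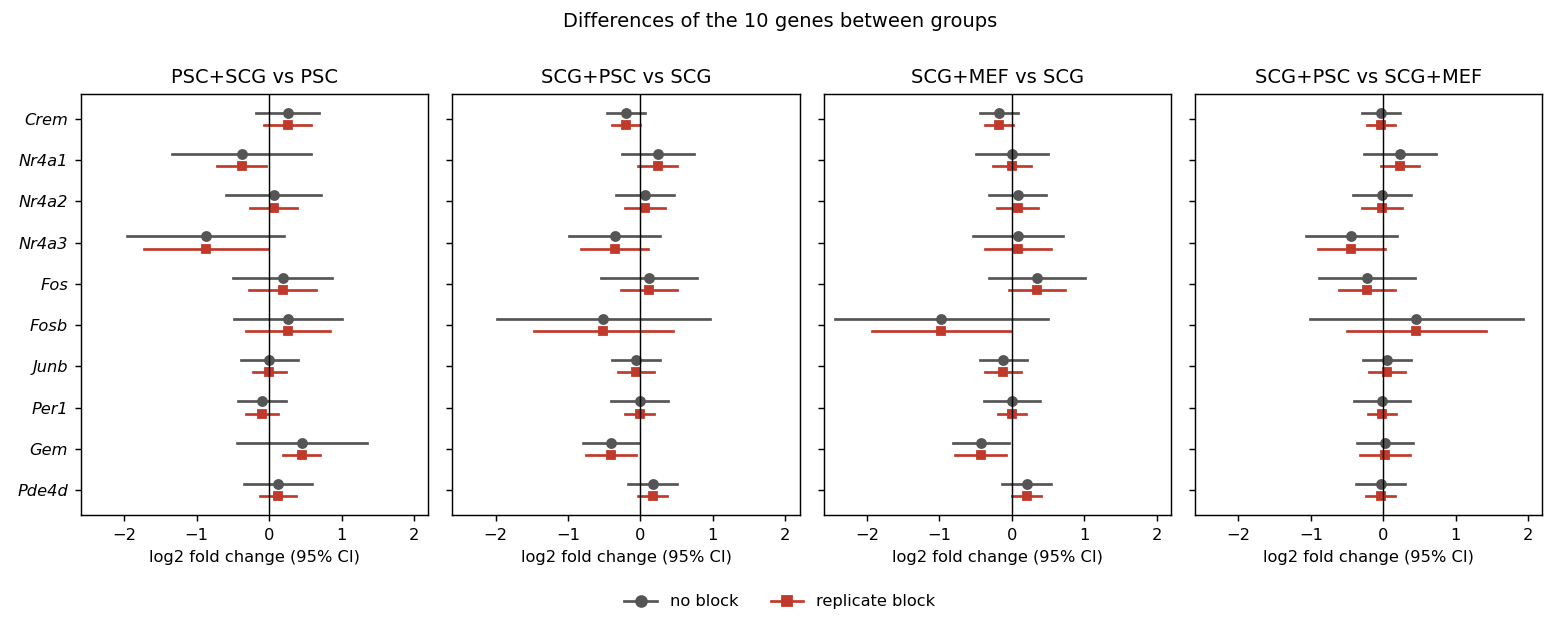
Log2 fold change (x axis) of each of the 10 genes (y axis) in the 4 comparisons, with its 95% confidence interval from limma, drawn as grey circles for the fit with no block and as red squares for the blocked fit. Every grey interval spans 0 except that of Gem in SCG+PSC against SCG and in SCG+MEF against SCG. Red intervals clear of 0 are those of Nr4a1, Nr4a3 and Gem in PSCs and of Crem and Gem in SCG+PSC against SCG. In SCG+MEF against SCG they are those of Fosb, Gem and Pde4d. The widest grey interval is that of Nr4a3 in PSCs and that of Fosb in the ganglia.

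In PSCs, coculture with ganglia asks whether cells exposed to sympathetic signals carry a trace of the cAMP response. Crem, whose internal promoter gives the repressor ICER that ends the response, had 274, 210.0 and 257 normalized counts in PSC replicates 1, 2 and 3 and 329, 255 and 302 in PSC+SCG replicates 1, 2 and 3. Each cocultured library was above its same-numbered partner by a similar step (0.26, 0.28 and 0.23 on the log2 scale), while the groups overlapped. Crem thus had a log2 fold change of 0.26, with a 95% interval of -0.18 to 0.70, or of -0.07 to 0.58 once the replicates were blocked (limma adjusted p = 0.768). In the fit without a block, leaving out 1 library but not its partner moved the value between 0.15 (without PSC replicate 2) and 0.36 (without PSC+SCG replicate 2). Counts per gene do not part ICER from the full-length products of Crem. Pde4d, a cAMP phosphodiesterase that PKA activates and that lowers cAMP, differed little, with 797, 539 and 681 in PSC and 870.1, 575 and 753 in PSC+SCG. Its 3 same-numbered differences were 0.13, 0.09 and 0.14 on the log2 scale, again all upward and small beside the range within a group. In the fit without a block, leaving out 1 library but not its partner moved the log2 fold change of 0.12 between -0.03 and 0.29.

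Gem had the largest positive difference in PSCs. Its normalized counts were 1337, 1696 and 891 in PSC replicates 1, 2 and 3 and 1949.8, 2894 and 919 in PSC+SCG. Replicates 1 and 2 were higher with ganglia by 0.54 and 0.77 on the log2 scale, replicate 3 by 0.04, and the level of replicate 3 was the lowest of its group in both groups. This gave a log2 fold change of 0.45 (95% interval -0.45 to 1.35 without a block, 0.20 to 0.71 with it), a fold of 1.37. With the replicate block its unadjusted p was 0.00132 and its limma adjusted p 0.112. Fits without a block left out 1 library and kept its partner. There the log2 fold change was 0.08 without PSC+SCG replicate 2, 0.20 without PSC replicate 3 and 0.91 without PSC+SCG replicate 3. Crem, Pde4d and Gem were the 3 of 10 members that were higher in all 3 same-numbered pairs, against 13.6% of protein-coding genes, and 0 members were lower in all 3 pairs, against 9.94%. The groups overlapped for all 10 members, while 4.37% of protein-coding genes had groups that did not overlap.

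The NR4A receptors, orphan nuclear receptors that are among the first genes induced by cAMP, shared no direction in PSCs with ganglia. Nr4a1 had 821, 427 and 478 normalized counts in PSC and 691, 214 and 516 in PSC+SCG, a log2 fold change of -0.38 (95% interval -1.34 to 0.58). In the fit without a block it was 0.12 without PSC+SCG replicate 2, whose same-numbered PSC library stayed in. Nr4a2 had 307, 301 and 451 in PSC and 387, 241 and 508 in PSC+SCG, lower in replicate 2 and higher in the other 2 (log2 fold change 0.06, 95% interval -0.60 to 0.72). Nr4a3 was barely present, with 34.7, 25.0 and 24.1 normalized counts in PSC and 8.90, 26.6 and 12.8 in PSC+SCG. Its log2 fold change of -0.88 (95% interval -1.96 to 0.21) was the largest in size of the 10, at a level at which 1 library moves the value, and it was -1.29 when PSC+SCG replicate 2 was left out and -0.55 when PSC+SCG replicate 1 was. Nr4a1, Nr4a3 and Gem were the 3 members with an unadjusted p under 0.05 in the blocked fit, where their limma adjusted p was 0.501, 0.574 and 0.112.

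The AP-1 genes and Per1 stayed within the spread of the PSC libraries. Fos had 132, 81.7 and 86.7 normalized counts in PSC and 138, 120.4 and 83.0 in PSC+SCG (log2 fold change 0.19, 95% interval -0.50 to 0.87). Fosb, a close relative of Fos, had 58.3, 34.1 and 60.7 in PSC and 68.2, 55.3 and 55.3 in PSC+SCG. Junb, with 1863, 1639 and 2230.0 in PSC and 1596, 1881 and 2279.6 in PSC+SCG, had the mean closest to equal, with a log2 fold change of 0.0023 and a 95% interval of -0.39 to 0.39. Per1 had 2112, 1836 and 1544 in PSC and 1845, 1647 and 1598 in PSC+SCG, and its log2 fold change of -0.10 came with a 95% interval of -0.43 to 0.23. In the fit without a block, the intervals of Junb and Per1 leave no room for a change of 1 on the log2 scale at this time point. Those of Nr4a1, Nr4a3, Gem and Fosb do in that fit, while the blocked interval of Gem given above stays under 1.

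**Figure D2:**
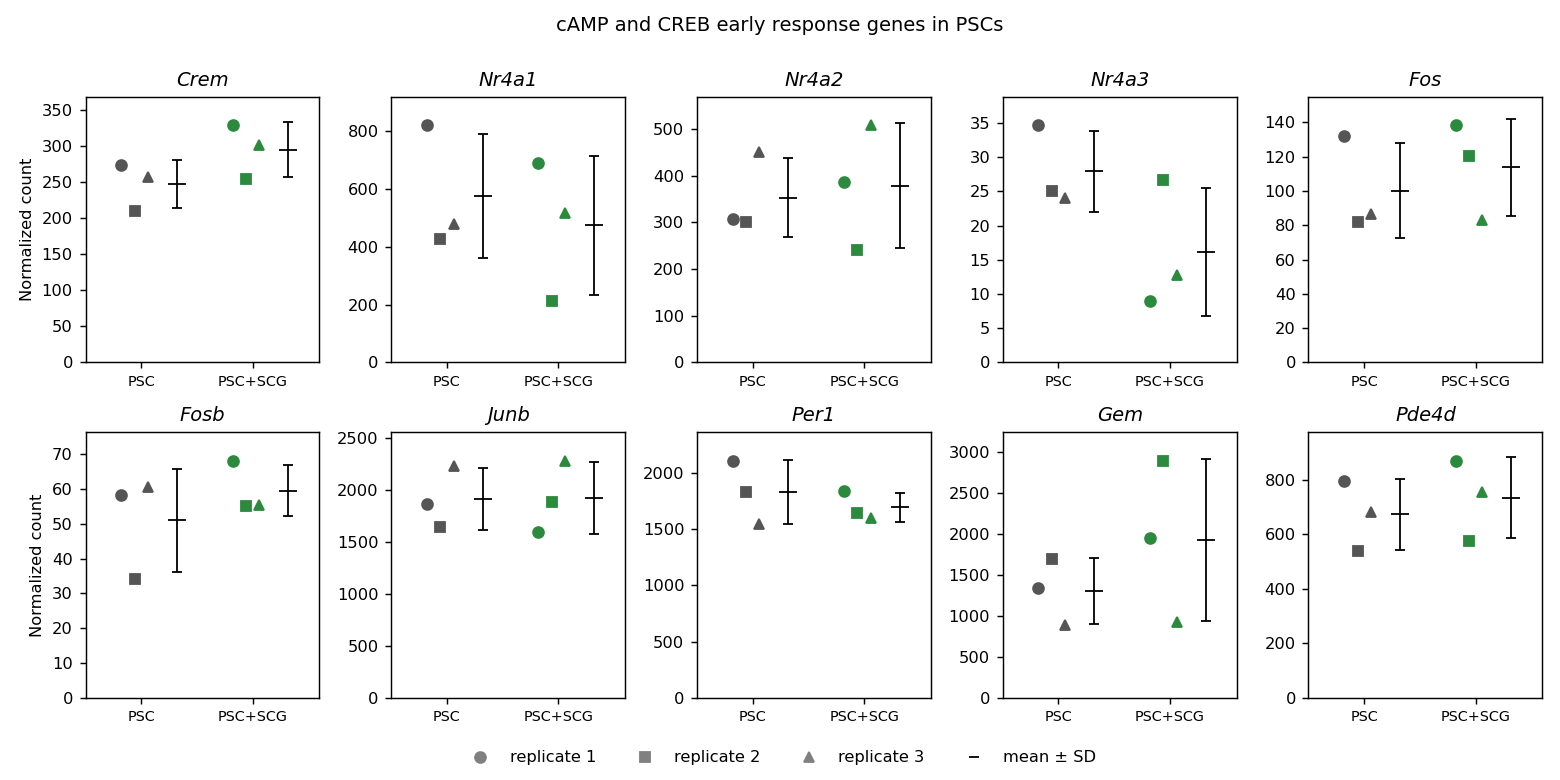
Normalized counts (y axis, from 0) of the 10 genes in PSC and PSC+SCG libraries (x axis), with the replicate number as the marker shape and the mean ± SD (n = 3) beside the points. The groups overlap for each gene, and Gem and Nr4a1 spread the most among the genes with over 100 normalized counts, from 891 to 2894 and from 214 to 821.

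For the ganglia, the cocultures ask what stromal cells do to the neurons and the cells around them. Gem was lower in the explants with either fibroblast line. It had 193, 224 and 207 normalized counts in SCG replicates 1, 2 and 3, against 159, 165 and 139 in SCG+MEF and 179, 139, 154 and 209.8 in SCG+PSC replicates 1 to 4. SCG+MEF lay wholly below SCG, and so did SCG+PSC replicates 1 to 3, while SCG+PSC replicate 4, which the main fit leaves out, lay inside the range of SCG. Gem differed on the log2 scale by -0.43 in SCG+MEF against SCG (95% interval -0.82 to -0.04) and by -0.41 in SCG+PSC against SCG (95% interval -0.79 to -0.02). The limma adjusted p was 1 in both, and 0.546 and 0.369 in the blocked fit. With all 4 SCG+PSC libraries the latter log2 fold change was -0.30. Both comparisons use the same SCG libraries.

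Crem ran the same way in the explants. It stood at 844, 736 and 735 in SCG, at 715, 635 and 702 in SCG+MEF and at 704, 648, 661 and 806 in SCG+PSC replicates 1 to 4. As for Gem, the first 3 SCG+PSC libraries and all SCG+MEF libraries were below every SCG library, and SCG+PSC replicate 4 was not. Its log2 fold change was -0.20 in SCG+PSC against SCG (95% interval -0.46 to 0.06, and -0.39 to -0.0040 with the block) and -0.17 in SCG+MEF against SCG (95% interval -0.44 to 0.09). With all 4 SCG+PSC libraries the first of these was -0.13. With SCG+PSC replicate 4 left out, Crem and Gem were the 2 of 10 members whose groups did not overlap in SCG+PSC against SCG. Both were lower, against 2.78% of protein-coding genes lower without overlap in the same libraries. With replicate 4 the groups of both genes overlapped. They were also the 2 of 10 in SCG+MEF against SCG, against 2.04%. Among other lists, proliferation markers moved in the same libraries, with 0 of 8 past the threshold without a block and 7 of 8 higher with it in SCG+PSC against SCG, and 0 of 8 either way in SCG+MEF against SCG. Their summed level was 5921 to 19725 in SCG, 7074 to 21381 in SCG+MEF and 16899 to 28806 in SCG+PSC. Of 8 endothelial markers 0 were past the threshold in either fit, but 7 had an unadjusted limma p under 0.05 in SCG+PSC against SCG, with a median log2 fold change of 0.87, and 2 in SCG+MEF against SCG, with a median of 0.60. The summed level of the endothelial markers was 3683 to 4638 in SCG, 4041 to 4793 in SCG+MEF and 4379 to 4619 in SCG+PSC. Emcn, the most abundant of the 8, went against these medians, with 2262 to 3085 in SCG, 1708 to 2501 in SCG+MEF and 1514 to 2151 in SCG+PSC. The part of either list in the values of Crem and Gem was not tested.

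**Figure D3:**
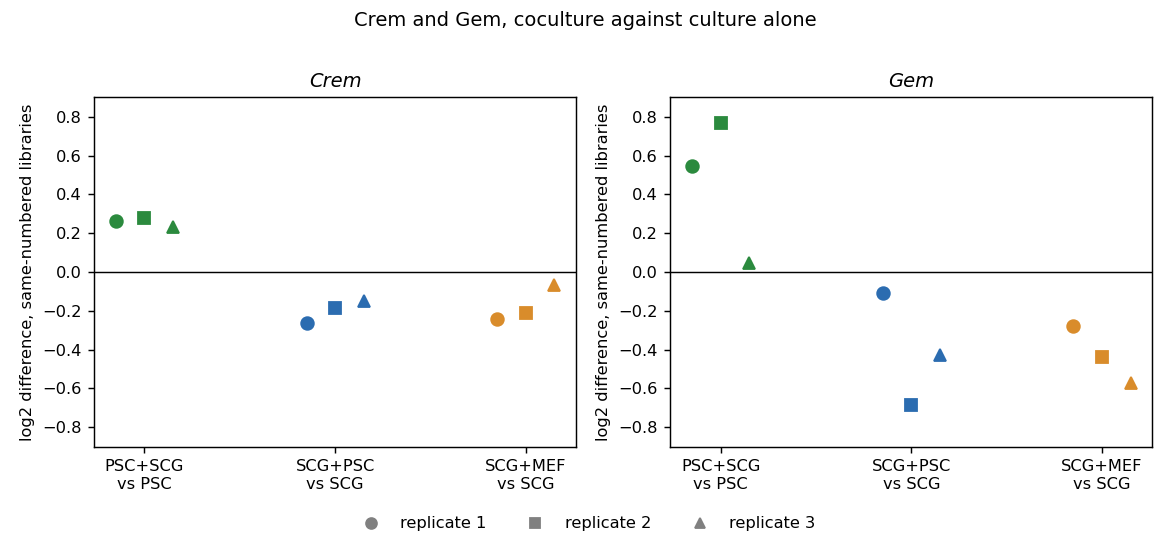
Log2 difference between same-numbered libraries (y axis) of Crem and Gem in each of the 3 comparisons of coculture with culture alone (x axis), with the replicate number as the marker shape. All 3 points lie above 0 in PSCs and all 6 below 0 in ganglia, for each of the 2 genes, and SCG+PSC replicate 4, with no partner, is not shown.

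Fos, Fosb and Junb of the ganglia overlapped between the 3 groups. Fos had 1519, 2012 and 891 normalized counts in SCG and 2252, 2117 and 1169.7 in SCG+MEF, with replicate 3 the lowest of each group. In SCG+PSC its 4 values were 1521, 1517, 1513 and 1528, a range of 15.4 normalized counts that is smaller than the counting error of 1 such value (39.0, the square root of the mean). This comparison was made for Fos in SCG+PSC alone, and how many genes have so narrow a range was not tested. Fos was higher in SCG+MEF than in SCG in all 3 same-numbered pairs, with a log2 fold change of 0.34 (95% interval -0.32 to 1.01), which was 0.02 without SCG replicate 3. The log2 fold change in SCG+PSC against SCG was 0.12 (95% interval -0.55 to 0.78), which was -0.20 without SCG replicate 3.

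Fosb was scarce, with 120.5 normalized counts in SCG replicate 1, 24.7 and 22.5 in SCG replicates 2 and 3, 14.2 to 25.4 in SCG+MEF and 12.8 to 43.2 in SCG+PSC. The SCG replicate 1 library alone held the high value. Its log2 fold change in SCG+MEF against SCG, -0.97 (95% interval -2.44 to 0.50), shrank to -0.20 without that library, and that in SCG+PSC against SCG, -0.51, became 0.26. Without SCG+PSC replicate 3, the library lowest in Fosb, the latter was 0.03. Junb had 3501, 3089.7 and 2671 in SCG, 2914, 3294 and 2369 in SCG+MEF and 3044, 2649.9, 3116 and 2588 in SCG+PSC. Its log2 fold changes against SCG were -0.07 with PSCs (95% interval -0.40 to 0.26) and -0.12 with MEFs (95% interval -0.45 to 0.21).

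Among the NR4A receptors of the ganglia, Nr4a1 had 693, 543 and 441 normalized counts in SCG, 592, 689 and 410 in SCG+MEF and 729, 668, 558 and 627 in SCG+PSC. It was higher in SCG+PSC than in SCG in all 3 same-numbered pairs, by 0.07, 0.30 and 0.34, with a log2 fold change of 0.24 (95% interval -0.26 to 0.73 without a block and -0.03 to 0.50 with it). In the fit without a block, leaving out SCG replicate 3 brought it to 0.08 and leaving out SCG replicate 1 to 0.40. Nr4a3 went the other way, with 109, 87.5 and 109.6 in SCG, 89.2, 86.7 and 161 in SCG+MEF and 67.1, 75.0, 98.3 and 63.5 in SCG+PSC. Its log2 fold change was -0.36 in SCG+PSC against SCG (95% interval -0.98 to 0.27), and in SCG+PSC against SCG+MEF, where it was lower in all 3 same-numbered pairs, it was -0.44 (95% interval -1.06 to 0.18), or -0.15 without SCG+MEF replicate 3. Nr4a2, which takes part in the noradrenergic and dopaminergic neuron programs, was the steadiest of the 3, with 589, 481 and 368 in SCG, 484, 519 and 490 in SCG+MEF and 517, 538, 427 and 511 in SCG+PSC. Its log2 fold changes against SCG were 0.06 and 0.08, with 95% intervals of -0.34 to 0.46 with PSCs and -0.32 to 0.48 with MEFs.

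Per1 and Pde4d completed the set in the ganglia. Per1 had 1345, 1123 and 1092 normalized counts in SCG, 1476, 1189 and 949 in SCG+MEF and 1372, 1098, 1066 and 804 in SCG+PSC, so that replicate 1 was the highest in each group. Against SCG the log2 fold change of Per1 was -0.01 in SCG+PSC and 0.0043 in SCG+MEF, with 95% intervals of -0.40 to 0.38 and -0.39 to 0.39. Pde4d had 1066, 809 and 1058 in SCG, 1128, 1048 and 1177 in SCG+MEF and 1095, 931, 1272 and 1239 in SCG+PSC. It was higher than in SCG in all 3 same-numbered pairs with each fibroblast line, with log2 fold changes of 0.17 (95% interval -0.17 to 0.51) with PSCs and 0.20 (95% interval -0.14 to 0.54) with MEFs. With the block the unadjusted limma p of Pde4d was 0.0883 with PSCs (adjusted 0.560) and 0.0458 with MEFs (adjusted 0.648). In the fit without a block, leaving out SCG replicate 2, the lowest library, brought the log2 fold changes to 0.04 with PSCs and 0.07 with MEFs. Same-numbered pairs ran upward for 2 members and downward for 3 in SCG+PSC against SCG, where 20.2% and 14.9% of protein-coding genes did so. In SCG+MEF against SCG they ran upward for 2 and downward for 2, against 17.4% and 10.2%.

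**Figure D4:**
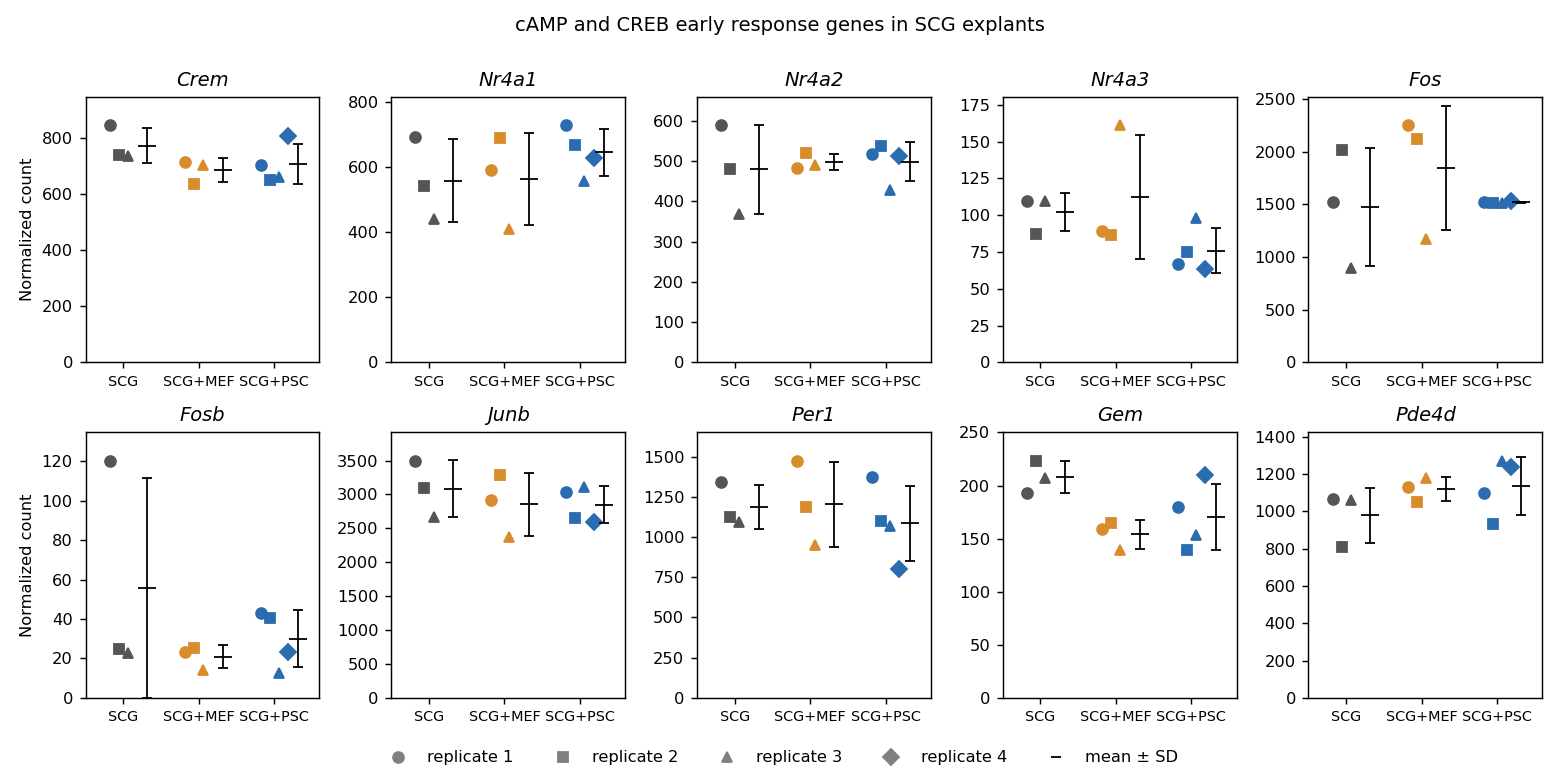
Normalized counts (y axis, from 0) of the 10 genes in SCG, SCG+MEF and SCG+PSC libraries (x axis), with the replicate number as the marker shape and the mean ± SD beside the points (n = 3, 3 and 4). Fos in SCG+PSC sits between 1513 and 1528 while SCG spans 891 to 2012, and 1 SCG library holds the high Fosb value of 120.5.

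Between the 2 fibroblast lines themselves, SCG+PSC against SCG+MEF, no member stood apart. The groups overlapped for all 10 members, against 7.01% of protein-coding genes without overlap. Same-numbered pairs ran upward for 0 members and downward for 1, against 16.7% and 20.7%. The differences ran on the log2 scale from -0.44 (Nr4a3) to 0.46 (Fosb, 95% interval -1.01 to 1.93), with a median of -0.02. The medians over all protein-coding genes tested and over the 10 members were 0.01 and 0.09 in PSC+SCG against PSC, 0.01 and -0.04 in SCG+PSC against SCG, and 0.03 and 0.0042 in SCG+MEF against SCG.

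The spread of the members within groups was wide for some and ordinary for others. In PSCs the within-group SD of Nr4a1 was 0.72 on the log2 scale, larger than that of 97.0% of the 11081 protein-coding genes with a mean of at least 100 normalized counts, whose median SD was 0.19. Gem had 0.68 (above 96.6%) and Nr4a2 had 0.45 (above 90.7%), while Per1 had 0.18 and Crem 0.19. Over the 10 ganglion libraries Fos had 0.42 (above 88.1% of 12135 genes) and Nr4a1 0.29 (above 74.5%), whereas Crem had 0.12, below most genes. These SDs include the deviations shared by same-numbered libraries, which the blocked fit takes out. They are not the standard error of a difference.

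The rest of the pathway was read from lists of 100 further genes, of which 88 were tested in PSCs and 98 in ganglia. Without a block 0 of them were past the threshold in any comparison. An unadjusted p under 0.05 was reached by 4 of 88 in PSC+SCG against PSC (where 1.41% of protein-coding genes reached it), by 9 of 98 in SCG+PSC against SCG (4.14%), by 5 of 98 in SCG+MEF against SCG (2.44%), and by 7 of 98 in SCG+PSC against SCG+MEF (3.07%). In the blocked fit the counts were 8 of 88, 24 of 98, 17 of 98 and 19 of 98, or 9.09%, 24.5%, 17.3% and 19.4%, against 6.09%, 13.3%, 8.1% and 14.8% of protein-coding genes. In PSCs the 4 genes were Dusp1, Sik2, Egr1 and Pde1a. Dusp1, a phosphatase of MAP kinases and an early gene, stood at 1394 ± 91.0 normalized counts with ganglia and 1057 ± 20.7 without them (SD, n = 3 each), without overlap, giving a log2 fold change of 0.40 (standard error 0.12). Sik2, a kinase that holds the CREB coactivators in the cytoplasm, had 2096 ± 183 and 1617 ± 62.2 (SD, n = 3 each), also without overlap, and a log2 fold change of 0.37 (standard error 0.12). Egr1, an early gene of serum and growth factors, had the lower mean with ganglia, 2607 ± 477 against 3530.0 ± 479.8 (SD, n = 3 each), but in replicate 1 the values were 3042 and 3041. Pde1a, a phosphodiesterase set by calmodulin, had 3114 ± 702 with ganglia and 2230.4 ± 475 without (SD, n = 3 each). Their limma adjusted p was 0.9999 each, and with the replicate block 0.117, 0.126, 0.139 and 0.0284. The log2 fold change of Pde1a, 0.48, stayed under the limit of 0.5.

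In the ganglia several early genes beyond the 10 members were read as well, and means of SCG+PSC here are over replicates 1 to 3. Egr1 had 2710.4 normalized counts in SCG replicate 1, 1051 and 1133 in the other 2 SCG libraries, 1219 to 1514 in SCG+MEF and 1406 to 2438 in SCG+PSC, and SCG replicate 1 was the highest of all. Ptgs2, the inducible cyclooxygenase, had 1107 ± 322 (SD, n = 3) normalized counts in SCG, 475 ± 154 (SD, n = 3) in SCG+MEF and 502 ± 219 (SD, n = 3) in SCG+PSC. It was past the threshold with the replicate block only, lower with MEFs by a log2 fold change of -1.22 (limma adjusted p = 0.00782 with the block) and with PSCs by -1.18 (limma adjusted p = 0.00568 with the block). Arc, a synaptic early gene, had 78.0, 89.4 and 75.8 in SCG, 43.6, 52.6 and 43.6 in SCG+MEF and 46.0, 51.7, 39.5 and 44.4 in SCG+PSC. All 7 cocultured libraries, SCG+PSC replicate 4 included, were below the 3 SCG libraries, with log2 fold changes of -0.79 with MEFs and -0.82 with PSCs, and with the replicate block its limma adjusted p was 0.328 and 0.126.

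Atf3, an ATF/CREB factor induced in injured neurons and listed here with the early genes, was very abundant in the explants, at 12661, 15239 and 11437 in SCG, 18144, 17356 and 17074 in SCG+MEF and 12364, 12812, 10978 and 12558 in SCG+PSC. Every SCG+MEF library was above every other ganglion library, and SCG+PSC against SCG+MEF differed by -0.54 on the log2 scale (limma adjusted p = 1 and 0.0219 with the block). Egr2 had 1027 ± 115 (SD, n = 3) in SCG+PSC and 691 ± 87.2 (SD, n = 3) in SCG+MEF, a log2 fold change of 0.57 (limma adjusted p = 0.0580 with the block). Fosl1, the FOS relative FRA1, had 879 ± 194 (SD, n = 3) in SCG+PSC, 556 ± 84.1 (SD, n = 3) in SCG and 534 ± 211 (SD, n = 3) in SCG+MEF, and was past the threshold with the block against SCG and against SCG+MEF (limma adjusted p = 0.0352 and 0.0291). Creb3l1, a CREB family factor of the secretory pathway, was the other gene past it with the block, at 2064 ± 559 (SD, n = 3) in SCG+PSC and 1395 ± 588 (SD, n = 3) in SCG (limma adjusted p = 0.0364). Fosl1 and Creb3l1 were singled out after their values were seen.

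The remaining genes that the rule takes in the ganglia were lower in level or smaller in difference. Pde3b, a cAMP phosphodiesterase, had a log2 fold change of 0.31 and Sst, which encodes somatostatin, one of 1.77 at 29.5 ± 6.60 (SD, n = 3) against 9.68 ± 8.31 (SD, n = 3) normalized counts, both in SCG+PSC against SCG. Dusp4, another MAP kinase phosphatase, had -0.46 in SCG+MEF against SCG. Jun, which pairs with FOS proteins, had -0.28 and Adcy7, an adenylyl cyclase, -0.34 in SCG+PSC against SCG+MEF. All 5 had a limma adjusted p of 1 without a block, and none was past the threshold with it.

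Of the components upstream, 10 adenylyl cyclases, 16 G protein, PKA and Epac genes, 12 CREB family and coactivator genes and 14 other phosphodiesterases were listed, and Creb3l1 in SCG+PSC against SCG was the only one past the threshold in any comparison with the block. Creb1, which encodes CREB, had 1902 to 2177 normalized counts in SCG, 1924 to 2422 in SCG+MEF, 1961 to 2396 in SCG+PSC, 1429 to 1609.6 in PSC and 1382 to 1722 in PSC+SCG. Prkaca, the main catalytic subunit of PKA, ranged from 4091 to 5623 in the ganglia and from 5133 to 5876 in PSCs. Pde4b, a further cAMP phosphodiesterase, had 1843 to 3389 in the ganglia and 2327 to 4172 in PSCs. Npas4, an early gene of neuronal activity, had 50.4 to 119.6 in the ganglia and 19.7 to 130.2 in PSCs. The groups of each of these 4 genes overlapped.

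**Figure D5:**
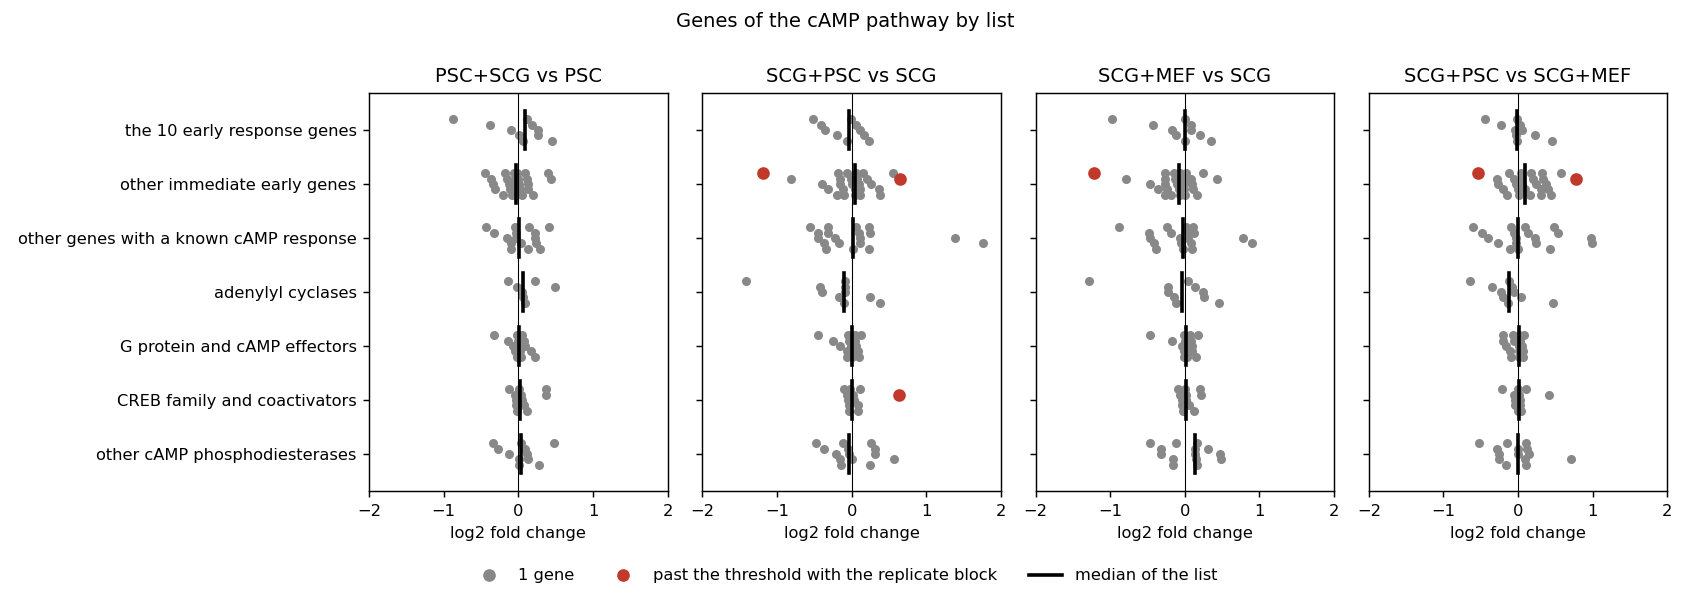
Log2 fold change (x axis) of each tested gene of the 10 members and of 6 lists of the cAMP pathway (y axis) in the 4 comparisons, with the median of each list as a black bar and genes past the threshold with the replicate block in red. The red points are Ptgs2, Fosl1, Creb3l1 and Atf3, and the medians of the members lie between -0.04 and 0.09.

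The genes whose pattern over the 10 ganglion libraries was most like that of a member were picked by Pearson's r on log2 counts among 12134 protein-coding genes, as a description with no test. They were Anpep, Tpbg and Cttnbp2 for Fos (r = 0.96, 0.93 and 0.92), Rhbdf2, Midn and Lif for Nr4a1 (r = 0.94, 0.94 and 0.93), Lpcat1, Mkx and Cnot8 for Crem (r = 0.86, 0.83 and 0.83), and Ilvbl, Hgs and Spacdr for Per1 (r = 0.97, 0.97 and 0.97). None of these 12 is another of the 10 members. The libraries share groups and replicate numbers, and the highest of many correlations over so few libraries is high in any case.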

How the data were processed

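Bulk RNA-seq libraries were grouped by their titles. The authors aligned reads to GRCm39 with STAR 2.7.10b, counted them per gene by strand on GENCODE M33 and divided each library by its DESeq2 1.38.3 size factor. The deposited values are thus a signal, normalized counts, unfiltered, in separate PSC and ganglion tables. Dividing by the step of a library gave back whole reads in 14 of 16 libraries, not PSC+SCG replicate 1 and SCG+PSC replicate 4.

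Genes with a sum of at least 10 over the libraries were tested as log2(normalized count + 1) with limma 3.58.1 in R 4.3.3 (empirical Bayes with trend). The pseudocount understates fold changes of low genes. The ganglion model held replicates 1 to 3 of each group. The study modelled batch dates, but no source used here ties a library to a date, so the main test had no block. Same-numbered libraries deviated together (r across genes 0.48 to 0.80 in ganglia, 0.54 to 0.83 in PSCs), so the replicate block is given as the paired analysis. Alternatives used other pseudocounts, filters and libraries, quantile normalization, and edgeR 4.0.16 and DESeq2 1.42.0 on recovered reads. The fits that left out 1 library had no block and kept its same-numbered partners, so their values also carry differences between replicates. The fits were tested on simulated data. The members, lists and rules were chosen with earlier results of these data known. The rule names the 10 members, the pathway genes past the threshold (or, with fewer than 4, the 4 of smallest p), and Egr1, Arc, Npas4, Atf3, Jun, Creb1, Prkaca and Pde4b. Gene lengths and promoters came from GENCODE M39 on GRCm39, and Crem, on chromosome 18, has no sequence printed. Counting error alone does not cover differences between cultures.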

Additional observations from a re-analysis of the deposited data

Results flagged for a closer look

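Crem and Gem were flagged because their same-numbered pairs ran in opposite directions in the 2 cell types. Crem was higher in PSC+SCG than in PSC in 3 of 3 pairs (log2 fold change 0.26) and lower in SCG+PSC than in SCG in 3 of 3 pairs (log2 fold change -0.20). For Gem the log2 fold changes were 0.45 and -0.41, again in 3 of 3 pairs each. In the fit without a block, leaving out 1 library but not its partner moved the PSC values between 0.15 and 0.36 for Crem and between 0.08 and 0.91 for Gem. The difference between the cell types was not tested, since the tables were normalized apart, and SCG+PSC replicate 4 has no partner and lies inside the range of SCG for both genes. No gene of the 10 had an outlying library among the 4 of SCG+PSC by Dixon's test, and groups of 3 were not tested.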

How the results depend on the processing

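None of the 10 members was past the threshold in any of the 84 alternative fits, with leave-one-out fits included. Of 840 values of single members in these fits 58 had the opposite sign to the main test and 0 were past the threshold. With 0.239% to 1.94% of all protein-coding genes past the threshold in the blocked fits, 0 of 10 members is near the share of all genes. It does not show that the members were steadier. Counts over all protein-coding genes differed between the fits. With the replicate block they went from 0 to 76 in PSC+SCG against PSC, from 3 to 309 in SCG+PSC against SCG, from 3 to 38 in SCG+MEF against SCG and from 0 to 181 in SCG+PSC against SCG+MEF, and the block changed no call of a member. In the ganglia, edgeR with the replicate block gave 312, 35 and 201 in the last 3 comparisons and DESeq2 without it 60, 21 and 18. SCG+PSC against SCG gave 6 with adjustment over protein-coding genes only, 8 with all 4 SCG+PSC libraries and 1 with the 2 groups alone, and SCG+MEF against SCG gave 1 with the 2 groups alone. With libraries numbered 1 and 2 only, a choice made after the data were seen, both gave 0. Leaving out 1 library gave 1 to 2 in SCG+PSC against SCG and 0 to 3 in SCG+MEF against SCG. The cause of these shifts was not tested. Low counts limit Nr4a3 in PSCs and Fosb in ganglia, whose intervals are the widest there. No count test was run on the PSC table, since the reads of 1 of its libraries were not recovered.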
